A study of Drosophila melanogaster with 19 samples.

Results

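The genes described here encode the mitotic kinases Polo, Aurora A and Aurora B (polo, aurA and aurB), the chromosome passengers Incenp and Borealin (Incenp and borr), the spindle checkpoint proteins BubR1 and Bub3 (BubR1 and Bub3), and the kinesin motors Klp61F, Ncd and Pavarotti (Klp61F, ncd and pav). They were taken by name from a table of 17735 genes, and 10 of 10 were found. The table gives polyadenylated RNA of single Drosophila melanogaster embryos that carried the nuclear marker Histone H2AvD-mRFP. The arrested embryos had been injected with double-stranded RNA against the mRNAs of 3 mitotic cyclins (CycA, CycB and CycB3), which holds nuclei in an interphase of cycle 12. They were collected 15, 30, 50 and 70 minutes after mitosis 11 (C12-15min, C12-30min, C12-50min and C12-70min, 2 embryos each). The control embryos were not injected and were collected in cycle 12 (C12), in cycle 13 (C13), about 10 minutes into cycle 14 (C14E) and about 70 minutes into cycle 14 (C14L). The knockdown and the injection itself cannot be told apart, and embryos at C12-70min were far younger than those at control C14L.

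Early fly embryos divide as a shared cytoplasm of synchronous nuclei, driven by RNA and protein that the mother put into the egg. Polo and Aurora A act at centrosomes and the spindle, and Aurora B works at centromeres and the spindle midzone as the enzyme of the chromosomal passenger complex, with Incenp as its scaffold and Borealin as a targeting subunit. BubR1 and Bub3 delay anaphase until chromosomes are attached, Klp61F (kinesin-5) pushes spindle poles apart, Ncd (kinesin-14) pulls inward, and Pavarotti (kinesin-6) bundles midzone microtubules and serves cytokinesis. When the rapid cycles end, part of the maternal RNA is cleared while the embryo's own genes are switched on.

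Levels are given as CPM, the reads of a gene scaled to a total of 1000000 per embryo, as the authors' mean over the embryos of a condition. The mean is over 3 embryos for control C13 and for control C14E and over 2 elsewhere, since 1 of the 3 control C12 embryos was left out by the authors. In the conditions with 2 embryos, most values could be split into the 2 single embryos, because only 1 pair of whole read numbers gives the deposited decimals. These embryos are named deeper and shallower by their assigned reads, which ran from 39242409 to 57998963 in these 12 embryos and from about 35960000 to 53160000 in the 6 others. Values were recovered for 88.7% to 93.0% of the genes at 10 CPM or more in 5 of these conditions and for 64.3% at C12-70min, where aurA was the only member recovered. For polo no condition gave a single solution. The targets of the knockdown were read first: at C12-30min, CycA, CycB and CycB3 stood at 0.54%, 2.45% and 1.89% of control C12, but in the libraries labelled C12-15min they stood at 68.5%, 78.5% and 82.5%. Summed markers of egg shell and of adult or larval tissue reached at most 0.81 and 0.52 CPM in any condition. Markers of yolk nuclei (srp and sisA) summed to 444 CPM at C12-70min and 495 CPM in control C14L, against 22.3 CPM in control C12. Those of pole cells (pgc and vas) summed to 42.5 and 26.2 CPM, against 111 CPM in control C12. The part of these cells in the differences below was not tested. A list of maternal RNAs summed to 370 CPM at C12-70min and 336 CPM in control C14L, against 1323 CPM in control C12, and a list of early zygotic genes summed to 522 CPM at C12-70min and 1063 CPM in control C14L, against 76.6 CPM in control C12. The yolk markers rose as the zygotic list did, and the pole cell markers fell as the maternal list did. Changes in these cells and the change from maternal to zygotic RNA thus cannot be told apart. CPM are shares of an embryo's RNA, so fewer cells of a type and less RNA per cell cannot be told apart.

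The sum of the 10 genes was nearly level, while single genes moved apart. The sum was 3377, 3502, 3483 and 3662 CPM at C12-15min, C12-30min, C12-50min and C12-70min, and 3514, 3118, 3296 and 3344 CPM in control C12, C13, C14E and C14L. The gap between a gene's highest and lowest condition had a median of 0.81 on the log2 scale over the 10 genes. It was 2.33 over the 6437 genes that reached 10 CPM in any condition. The 10 genes had 10 CPM or more in every condition, which limits their gap, while many of the 6437 did not. The gap over genes at 10 CPM throughout was not computed, so these medians are not a like comparison. Among the members the gap was widest for aurA (3.41), followed by pav (1.72), and lay between 0.57 (Incenp) and 0.88 (ncd) for the others. The plot of levels by condition shows these patterns gene by gene.

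**Figure D1:**
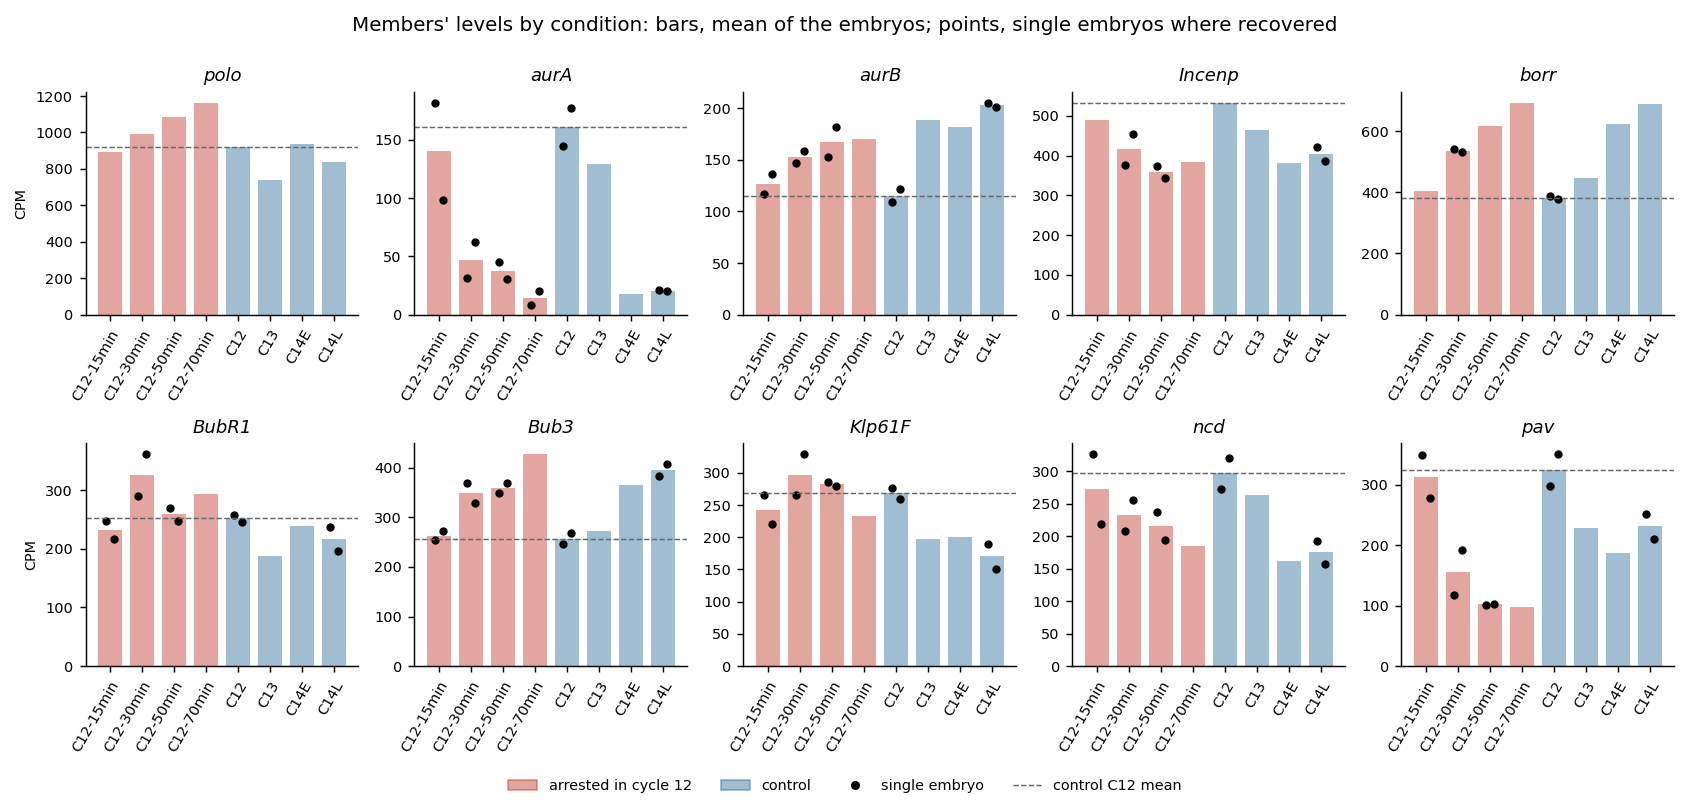
CPM of the 10 genes (1 panel each) in the arrested conditions (red bars, left) and the control conditions (blue bars, right); bars are the authors' means, black points are single embryos where reads were recovered, and the dashed line is the control C12 mean. The red bars of aurA and pav lie far below the dashed line from C12-30min on, with aurA at 14.2 CPM and pav at 97.5 CPM at C12-70min, while those of borr and Bub3 climb above it to 694 and 428 CPM.

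The genes lie on both large autosomes, with 2 members on 2L, 2 on 2R, 3 on 3L and 3 on 3R. In dm6 coordinates polo (FBgn0003124) spans chromosome 3L from 20309654 to 20313466, aurA (FBgn0000147) spans 3R from 11963124 to 11964826, and aurB (FBgn0024227) spans 2L from 10856797 to 10858094. Incenp (FBgn0260991) spans 2R from 7278467 to 7281795 and borr (FBgn0032105) spans 2L from 9251472 to 9253118. BubR1 (FBgn0263855) spans 2R from 5969099 to 5974385 and Bub3 (FBgn0025457) spans 3R from 29674007 to 29675421. Klp61F (FBgn0004378) spans 3L from 1241568 to 1245910, ncd (FBgn0002924) spans 3R from 29804290 to 29807127, and pav (FBgn0011692) spans 3L from 4242734 to 4246233. In aurA, Bub3, Klp61F and ncd, 9.70% to 15.9% of exon bases are also exon on the opposite strand in another gene. Whether the counting used strand is not given in the sources used here, so reads from these stretches cannot be told apart. Of these neighbours CG12213, which overlaps aurA, had 64 to 182 CPM and was highest at C12-70min, where aurA was lowest.

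Per kilobase of exon, borr and polo led the group in every condition but control C14L, where Bub3 (290 CPM per kilobase) stood between borr (531) and polo (281). At C12-70min borr reached 535 and polo 391 CPM per kilobase, and in control C12 they stood at 295 and 310. The gap between borr and polo in control C12 was smaller than the median 1.20-fold difference between its 2 embryos over recovered genes. In control C12, ncd (109), aurA (102), pav (101) and aurB (97.3 CPM per kilobase) formed a middle group of nearly equal levels. The same genes were far apart at C12-70min, at 67.7, 9.0, 30.4 and 144 CPM per kilobase for ncd, aurA, pav and aurB.

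aurA, the centrosomal kinase, lost more of its level than any other member. It had 140, 46.8, 37.8 and 14.2 CPM at C12-15min, C12-30min, C12-50min and C12-70min, and 161, 129, 17.5 and 20.4 CPM in control C12, C13, C14E and C14L. The deeper and shallower embryos had 31.4 and 62.1 CPM at C12-30min. They had 45.02 and 30.6 CPM at C12-50min, and 7.86 and 20.5 CPM at C12-70min, against 144 and 177 CPM in control C12. Every arrested embryo from C12-30min on was thus below both control C12 embryos. In a limma fit to the recovered embryos, with Benjamini-Hochberg adjustment over all genes tested, aurA fell at C12-30min, with a log2 difference of -1.83 ± 0.49 (SE, n = 2 embryos a condition, adjusted p = 0.0435). It fell likewise at C12-50min (-2.08 ± 0.49, limma adjusted p = 0.0146) and by C12-70min (-3.54 ± 0.49, limma adjusted p = 0.00131). It also fell in control C14L, with 20.9 and 20 CPM in the 2 embryos (-2.91 ± 0.49, limma adjusted p = 0.00106). At C12-50min the mean of aurA was 2.16-fold that of control C14E. The 2 embryos of C12-15min differed widely, at 182 and 98.3 CPM. Over recovered genes at 10 CPM or more these embryos differed by a median of 1.47-fold, more than those of the other 5 conditions (1.15-fold to 1.27-fold). The C12-15min embryos also entered the shared estimate of spread behind each SE of aurA.

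aurB, the kinase of the passenger complex, moved the other way. It had 126, 153, 167 and 170 CPM at C12-15min, C12-30min, C12-50min and C12-70min, and 115, 189, 182 and 203 CPM in control C12, C13, C14E and C14L. The embryos had 147 and 159 CPM at C12-30min, then 153 and 182 CPM at C12-50min, all above the 109 and 121 CPM of control C12. aurB rose at C12-50min (0.53 ± 0.16, limma adjusted p = 0.0346), a call that passed in 3 of 8 settings and was lost whichever embryo was left out. At C12-30min the limma adjusted p was 0.106, and 0.0412 with embryos centred on the median gene. In control C14L its embryos stood at 206 and 201 CPM, and the rise passed the test (0.82 ± 0.16, limma adjusted p = 0.00302).

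polo, the founding Polo-like kinase, had 893, 991, 1082 and 1164 CPM at C12-15min, C12-30min, C12-50min and C12-70min, and 922, 742, 939 and 838 CPM in control C12, C13, C14E and C14L. Its arrested means were ordered by time and ended 1.26-fold above control C12. No single embryo was recovered, so none of these differences was tested.

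The other passenger genes went in different directions. borr had 405, 536, 619 and 694 CPM at C12-15min, C12-30min, C12-50min and C12-70min, and 383, 446, 623 and 689 CPM in control C12, C13, C14E and C14L. Its embryos at C12-30min, 541 and 532 CPM, lay above those of control C12, 388 and 378 CPM, with a log2 difference of 0.49 ± 0.13 (limma adjusted p = 0.0637). The later times were recovered in more than 1 way and could not be tested, although their means were 1.62-fold and 1.81-fold that of control C12.

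Incenp, the scaffold of the same complex, had 489, 416, 359 and 384 CPM at C12-15min, C12-30min, C12-50min and C12-70min, and 534, 464, 382 and 405 CPM in control C12, C13, C14E and C14L. Its embryos at C12-50min had 373 and 345 CPM, below both control C12 embryos in each of the 2 pairs of read numbers possible there, of which the lowest value was 388 CPM. No test against control C12 was possible, and no condition mean differed from it by over 1.5-fold. Thus aurB and borr stood above control C12, and Incenp below it, in the mean of each of the other 7 conditions. These 7 comparisons share the same 2 control C12 embryos, so they are not independent. At C12-15min the embryos of aurB, borr and Incenp overlapped those of control C12. How many of all genes kept to the same side was not counted.

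The checkpoint genes differed in pattern although their proteins bind each other. Bub3 had 263, 349, 359 and 428 CPM at C12-15min, C12-30min, C12-50min and C12-70min, and 257, 273, 365 and 396 CPM in control C12, C13, C14E and C14L. Its embryos had 369 and 329 CPM at C12-30min, then 348 and 370 CPM at C12-50min, against 247 and 268 CPM in control C12. Bub3 rose at C12-50min (0.48 ± 0.12, limma adjusted p = 0.0222), again in 3 of 8 settings and not with any embryo left out. It also rose in control C14L, at 384 and 407 CPM (0.62 ± 0.12, limma adjusted p = 0.00353), and had an adjusted p of 0.0510 at C12-30min.

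BubR1 had 232, 326, 259 and 294 CPM at C12-15min, C12-30min, C12-50min and C12-70min, and 252, 187, 240 and 217 CPM in control C12, C13, C14E and C14L. The embryos at C12-30min, 290 and 362 CPM, were above those of control C12, 258 and 247 CPM. The difference of 0.36 ± 0.16 did not pass the test (limma adjusted p = 0.154, but 0.0329 with embryos centred on the median gene). At C12-50min its embryos, 270 and 248 CPM, overlapped those of control C12 (limma adjusted p = 0.869, but 0.0307, as a rise, with embryos centred on the median gene). Centring the condition means instead gave a log2 difference of -0.08, since the 2 centrings use unlike sets of genes.

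Among the motors, pav, the kinesin-6 of the midzone, had lower means from C12-30min on than in any control condition. It had 313, 155, 102 and 97.5 CPM at C12-15min, C12-30min, C12-50min and C12-70min, and 324, 227, 188 and 231 CPM in control C12, C13, C14E and C14L. Its embryos had 118 and 192 CPM at C12-30min, then 101 and 103 CPM at C12-50min, against 298 and 351 CPM in control C12. pav fell at C12-30min (-1.10 ± 0.24, limma adjusted p = 0.0362) and at C12-50min (-1.65 ± 0.24, limma adjusted p = 0.00587). In control C14L its embryos had 252 and 210 CPM, below control C12, and the difference of -0.49 ± 0.24 did not pass the test (limma adjusted p = 0.122). At C12-70min 2 pairs of read numbers were possible, 81.3 and 114 CPM or 121 and 74.3 CPM, and in either pair both embryos lay below those of control C14L.

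Klp61F, the motor that separates spindle poles, had 243, 297, 282 and 233 CPM at C12-15min, C12-30min, C12-50min and C12-70min, and 269, 197, 200 and 170 CPM in control C12, C13, C14E and C14L. In control C14L its embryos had 190 and 150 CPM, against 277 and 260 CPM in control C12, and Klp61F fell there (-0.66 ± 0.17, limma adjusted p = 0.0129). This call passed in 5 of 8 settings, with adjusted p up to 0.177, and was lost without the deeper control C12 embryo, without the shallower control C14L embryo and with embryos centred on the median gene. At C12-50min its embryos had 285 and 279 CPM, just above those of control C12 (0.07 ± 0.17, limma adjusted p = 0.750, but 0.0291, as a rise, with embryos centred on the median gene). Centring the condition means instead gave a log2 difference of -0.05.

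ncd, the motor of opposite direction, had 272, 232, 216 and 184 CPM at C12-15min, C12-30min, C12-50min and C12-70min, and 297, 264, 161 and 175 CPM in control C12, C13, C14E and C14L. Its embryos at C12-30min (207 and 256 CPM) and C12-50min (237 and 194 CPM) were below those of control C12 (273 and 320 CPM). The differences did not pass the test (limma adjusted p = 0.289 and 0.145). ncd fell in control C14L, with 193 and 157 CPM (-0.76 ± 0.23, limma adjusted p = 0.0241). This call passed in 4 of 8 settings, with adjusted p up to 0.138, and was lost without the shallower control C14L embryo, without either control C12 embryo and with embryos centred on the median gene.

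**Figure D2:**
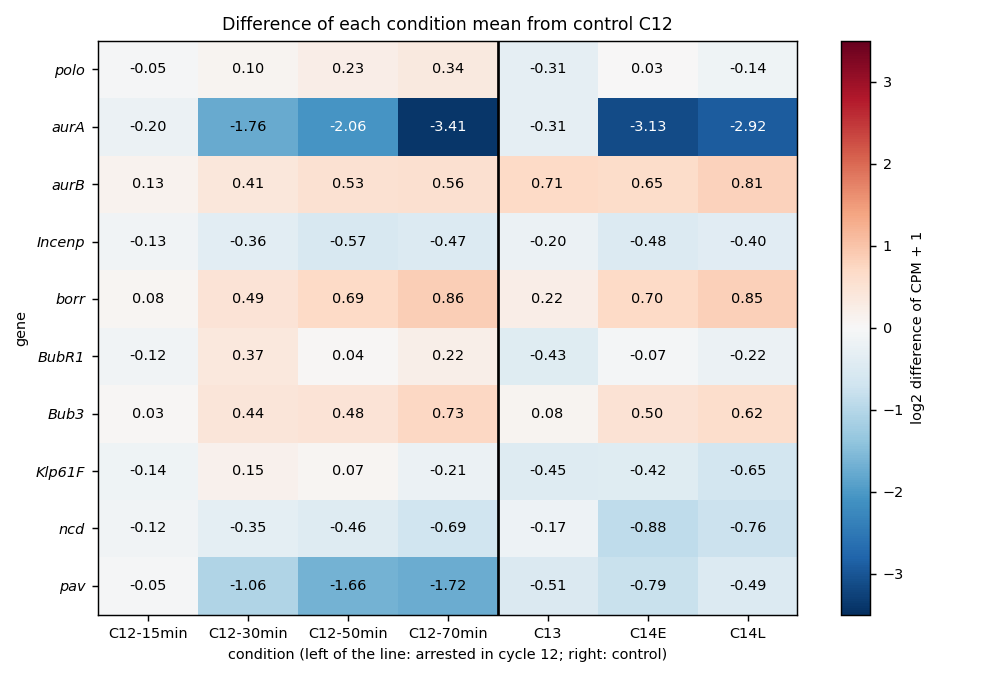
Log2 difference of CPM + 1 between each condition mean and the control C12 mean, for the 10 genes (rows) in the arrested conditions (left of the line) and the control conditions (right); red is higher and blue lower than control C12. aurA is blue on both sides (-3.41 at C12-70min, -2.92 in control C14L), pav is darker on the arrested side (-1.72 against -0.49), and borr is red throughout (0.86 at C12-70min, 0.85 in control C14L).

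The comparisons below share the control C12 embryos, except where control C14L is named as the other side. Relative to control C12, the 3737 genes at 10 CPM or more throughout had a median log2 difference of 0.12 at C12-30min and again at C12-50min. It was -0.13 at C12-70min and -0.29 in control C14L. The first comparison asked which members had moved in the arrested embryos by C12-30min. At C12-30min, 0 of 10 members were higher and 2 of 10 (aurA and pav) were lower than control C12 by over 1.5-fold between means. Over all 17735 genes 6.99% were higher and 16.1% lower, and over the 5592 genes that reached 10 CPM in either condition 11.4% and 42%. The limma fit tested 8 members and found the same 2 to have fallen, against 14.9% of 7782 genes called in either direction. Both calls were lost without the deeper C12-30min embryo and without the deeper or the shallower control C12 embryo. limma then called 0 of 7 members, with 5, 3 and 4 of 7 at an unadjusted p under 0.05, and 5, 0 and 0 of 7771 genes. The adjusted p for aurA ran from 0.0267 to 0.256 over the settings tried and for pav from 0.00759 to 0.256.

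At C12-50min, borr alone was higher and aurA and pav were lower than control C12 by over 1.5-fold. The background was 11.5% higher and 17.2% lower among all genes, and 17.1% and 46% among 5635 genes that reached 10 CPM in either. The limma fit tested 7 members and called 4, with aurB and Bub3 higher and aurA and pav lower, and 35.1% of 7759 genes were called. Relative to the median gene borr was within 1.5-fold of control C12 (0.57) and Incenp was lower by more (-0.69). Leaving out 1 embryo left 0 to 2 calls: 2 without the deeper C12-50min embryo, 1 without the shallower, 2 without the deeper control C12 embryo and 0 without the shallower (4 of 7 at an unadjusted p under 0.05). The calls for aurB and Bub3 were lost under each of these omissions, with limma adjusted p of 0.0554 to 0.170 for aurB and 0.0670 to 0.108 for Bub3.

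At C12-70min, 2 members (borr and Bub3) were higher and 3 (aurA, ncd and pav) lower than control C12 by over 1.5-fold. Among all genes 16.8% were higher and 18.6% lower, and among 5780 genes that reached 10 CPM in either 20.3% and 50.7%. The median member differed by 0.01 on the log2 scale, against -0.63 for those 5780 genes. It was -0.13 for the 3737 genes at 10 CPM or more in every condition, as all members were. aurA was the only member with a test here, and 56.8% of 6627 genes were called. With each condition centred on its median gene ncd passed 1.5-fold no longer (-0.56) and aurB did (0.68).

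In control C14L, 3 members (aurB, borr and Bub3) were higher and 3 (aurA, Klp61F and ncd) lower than control C12 by over 1.5-fold. Among all genes 19.5% were higher and 16% lower, and among 6288 genes that reached 10 CPM in either 29.4% and 40.5%. The limma fit tested 7 members and called 5, the same genes but for borr, which was not recovered, and 54.8% of 7692 genes were called. Without the deeper control C12 embryo, or without the shallower control C14L embryo, 3 members were called. Relative to the shift of -0.29 given above, Klp61F (-0.37) and ncd (-0.47) were within 1.5-fold of control C12, and aurA alone was lower by more.

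**Figure D3:**
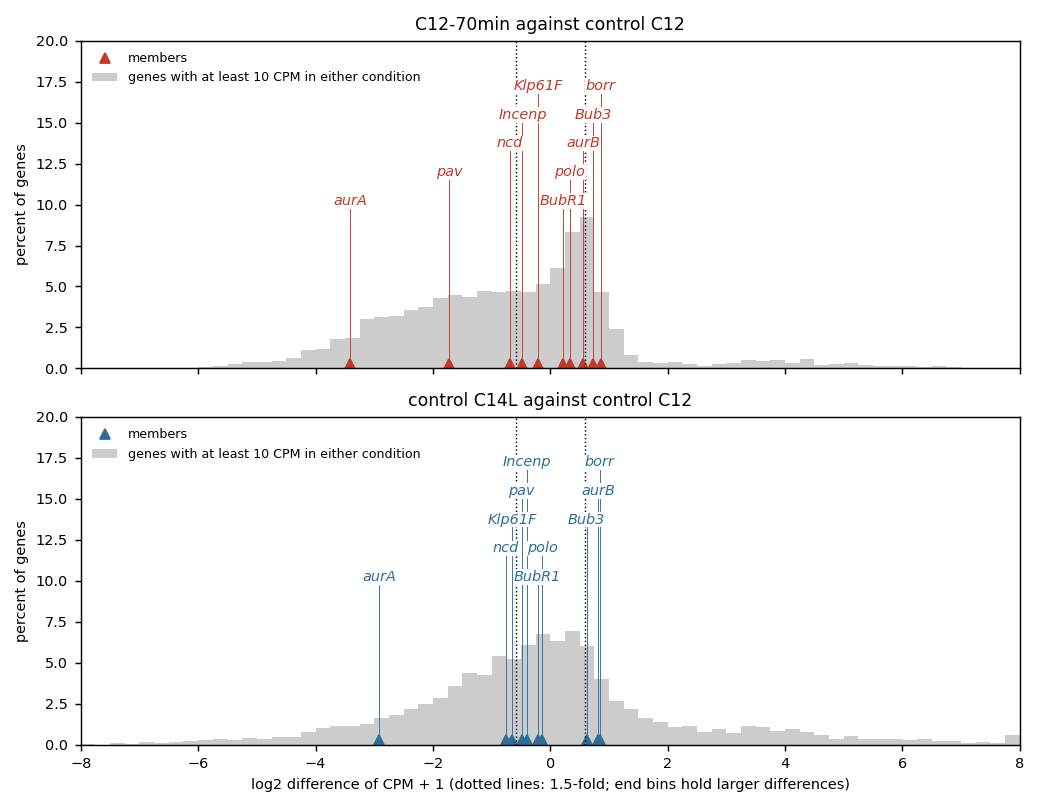
Log2 differences from control C12 at C12-70min (upper panel) and in control C14L (lower panel), for genes that reached 10 CPM in either condition (grey bars, percent of genes) and for the 10 members (triangles with names); dotted lines mark 1.5-fold. At C12-70min 50.7% of the grey genes lie left of the dotted lines, where aurA, pav and ncd also lie, and borr and Bub3 lie to the right.

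Set directly against each other, the latest arrested and control embryos differed by over 1.5-fold in 1 member. pav was 2.37-fold lower at C12-70min than in control C14L, and 0 members were higher. Among all genes 12% were higher and 21.4% lower, and among 5912 genes that reached 10 CPM in either 23.7% and 48.2%. aurA had 7.86 and 20.5 CPM at C12-70min and 20.9 and 20 CPM in control C14L, and the limma fit did not separate them (-0.63 ± 0.49, adjusted p = 0.305; 46.4% of 6699 genes were called). The means of borr (694 and 689 CPM), Incenp (384 and 405 CPM), Bub3 (428 and 396 CPM) and ncd (184 and 175 CPM) differed by 1.01-fold to 1.08-fold between C12-70min and control C14L.

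Since 8 members were recovered at both C12-50min and control C14L, this contrast was added with the data already seen. Klp61F was higher at C12-50min, with 285 and 279 CPM, than in control C14L, with 190 and 150 CPM (0.74 ± 0.17, limma adjusted p = 0.00796). pav was lower, with 101 and 103 CPM against 252 and 210 CPM (-1.16 ± 0.24, limma adjusted p = 0.00448). The other 6 did not pass the test, and 57.4% of 7887 genes were called. The call for Klp61F was lost without the shallower control C14L embryo (adjusted p = 0.0579).

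Other mitotic genes were taken from 5 lists. Of the 83 genes found, 12 were higher and 50 lower at C12-70min than in control C12 by over 1.5-fold, with a median of -1.07. Among the 5780 genes that reached 10 CPM in either, 20.3% were higher and 50.7% lower, and among all genes 16.8% and 18.6%. The lists were not filtered by CPM, so the counts here and by list below include genes under 10 CPM. In control C14L, 23 were higher and 32 lower, with a median of -0.06, beside 29.4% higher and 40.5% lower among 6288 genes. Directly between C12-70min and control C14L, 8 were higher and 48 lower, with a median of -1.22, beside 23.7% higher and 48.2% lower among 5912 genes. The limma fit could test 57, 69 and 61 of them in these contrasts and called 2 higher and 30 lower, 14 higher and 17 lower, and 1 higher and 34 lower. Of all genes it called 56.8%, 54.8% and 46.4% in the same contrasts. By direction these were 1485 higher and 2279 lower of 6627 genes, 2278 and 1934 of 7692, and 747 and 2362 of 6699.

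Of 16 other passenger, checkpoint and kinase genes, 1 was higher and 11 were lower at C12-70min than in control C12. The background was 20.3% higher and 50.7% lower, for genes reaching 10 CPM in either. tws, a regulatory subunit of the phosphatase PP2A, had 9.88 CPM at C12-70min and 44.6 CPM in control C14L, against 441 CPM in control C12. Zwilch, of the kinetochore's dynein-recruiting complex, had 3.20 CPM at C12-70min and 26.4 CPM in control C14L, against 74.2 CPM in control C12. Mad1, a checkpoint partner of BubR1 and Bub3, had 248 CPM at C12-70min and 135 CPM in control C14L, against 162 CPM in control C12. mts, the catalytic subunit of PP2A, stood at 1016 and 977 CPM at C12-70min and in control C14L, against 774 CPM in control C12.

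Of 22 other motor and midzone genes, 3 were higher and 16 lower at C12-70min, where the median was -1.79 against control C12. In control C14L 6 were higher and 8 lower, with a median of 0.04. Among genes reaching 10 CPM in either, 20.3% were higher and 50.7% lower at C12-70min, and 29.4% and 40.5% in control C14L. The list includes Klp59C and Klp59D, which were under 1 CPM in every condition. The microtubule-depolymerising kinesin Klp10A had 31.0 CPM at C12-70min and 105 CPM in control C14L, against 763 CPM in control C12. The kinetochore kinesin cana had 11.5 and 15.8 CPM at these stages, against 191 CPM in control C12. pbl, a gene needed for cytokinesis, had 264 CPM at C12-70min and 715 CPM in control C14L, against 50.6 CPM in control C12. It thus lay above control C12 in both, where pav lay below. Eb1, a microtubule plus-end protein, had 771 CPM at C12-70min and 676 CPM in control C14L, against 410 CPM in control C12.

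Of 11 kinetochore genes, 4 were higher and 4 lower at C12-70min than in control C12. Some of the higher genes were under 10 CPM in both conditions. Among genes reaching 10 CPM in either, 20.3% were higher and 50.7% lower. The centromere proteins Cenp-C and cal1 had 10.8 and 17.4 CPM at C12-70min and 90.2 and 78.7 CPM in control C14L, against 197 and 306 CPM in control C12. Nuf2 and Spc25, subunits of the microtubule-binding Ndc80 complex, had 149 and 152 CPM at C12-70min and 144 and 91.5 CPM in control C14L, against 95.0 and 93.8 CPM in control C12.

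Of 13 condensin and cohesin genes, 3 were higher and 6 lower at C12-70min than in control C12. The higher genes include a gene under 10 CPM in both conditions. Among genes reaching 10 CPM in either, 20.3% were higher and 50.7% lower. The cohesin subunits SMC1 and SMC3 had 22.8 and 23.4 CPM at C12-70min and 120 and 122 CPM in control C14L, against 5.68 and 106 CPM in control C12. The cohesion acetyltransferase gene eco had 17.3 CPM at C12-70min and 112 CPM in control C14L, against 146 CPM in control C12. san, another acetyltransferase gene needed for cohesion, had 293 CPM at C12-70min and 112 CPM in control C14L, against 176 CPM in control C12.

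Of 21 centrosome and augmin genes, 1 was higher and 13 were lower at C12-70min than in control C12. The background was 20.3% higher and 50.7% lower, for genes reaching 10 CPM in either. spd-2, a centrosome scaffold gene, had 25.3 CPM at C12-70min and 214 CPM in control C14L, against 281 CPM in control C12. Of the genes of the gamma-tubulin ring complex, Grip91 had 6.84 CPM at C12-70min and 3.52 CPM in control C14L, against 105 CPM in control C12. Grip75 and gammaTub23C, of the same complex, had 98.8 and 216 CPM at C12-70min and 79.9 and 187 CPM in control C14L, against 60.1 and 150 CPM in control C12.

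**Figure D4:**
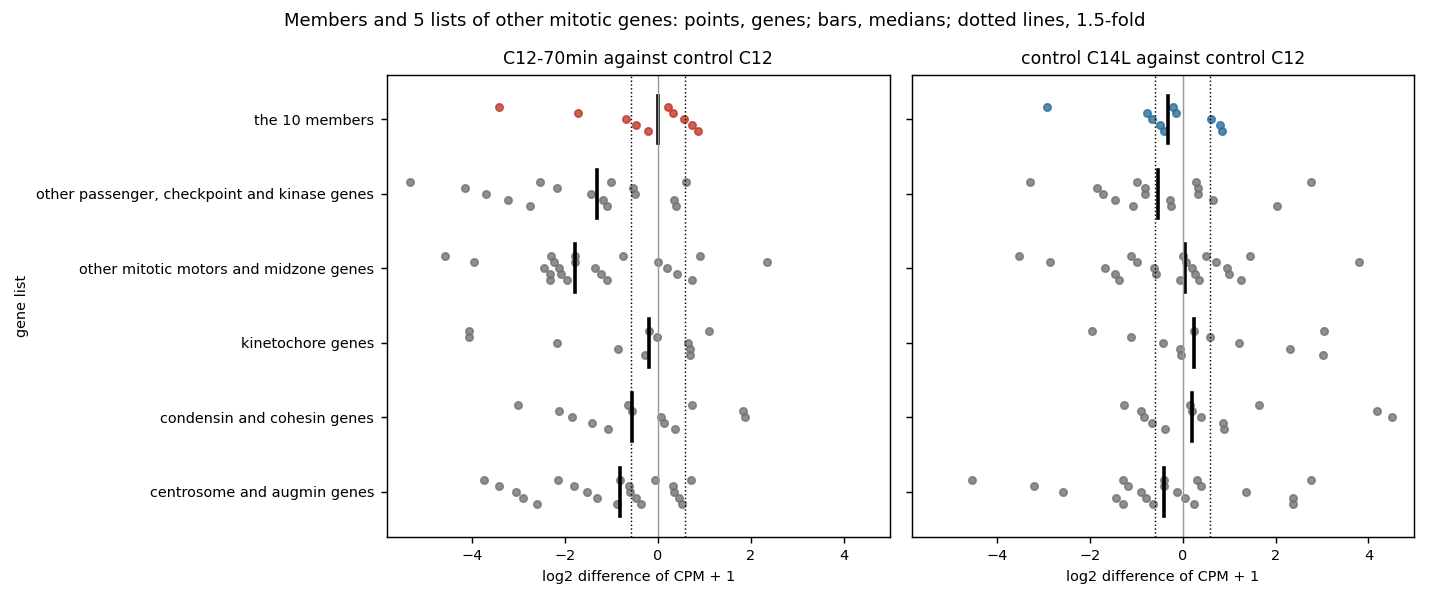
Log2 differences from control C12 at C12-70min (left) and in control C14L (right) for the 10 members (coloured points) and for 5 lists of other mitotic genes (grey points, 83 genes); black bars are medians and dotted lines mark 1.5-fold. At C12-70min the median of each of the 5 lists lies below that of the members (0.01), down to -1.79 for the other motor and midzone genes, whose median in control C14L is 0.04. All members had 10 CPM or more in every condition, while the lists were not filtered by CPM, so these medians are not a like comparison.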

How the data were processed

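Polyadenylated RNA of single embryos was sequenced. The authors trimmed reads with Trim Galore 0.6.0, aligned them to dm6 (BDGP6) with STAR 2.5.3a, used featureCounts (Subread 1.6.0) to count reads aligned to 1 place, and scaled them with DESeq2. They deposited the log2 of each condition's mean CPM plus 1, and no column of a single embryo. Members and gene lists were chosen with earlier results of these data known. Differences were taken on the deposited log2 scale (pseudocount 1), and over 1.5-fold between means counted as higher or lower, without a test. Each embryo's assigned reads followed from the size of the lowest values in a column (approximately for conditions of 3 embryos), and pairs of whole reads matching the 9 decimals were solved up to 2000 CPM. The solver was run on 1500 made-up read pairs, and 1384 gave 1 solution, the true pair in each case. The true totals were supplied and the values were rounded as in the deposited columns, so a single solution had to be the true pair. The run shows how often 1 solution is found and does not test the values inferred here. limma 3.58.1 (R 4.3.3) was fitted, with a trended variance, to log2(CPM + 1) of the recovered embryos for genes with at least 1 CPM in any of the 6 conditions, with Benjamini-Hochberg adjustment at 0.05. p-values measure the spread between embryos. Genes named beyond the members and cyclins were, in each list, the 2 highest and 2 lowest at C12-70min against control C12 with at least 10 CPM in either. Of 84 listed genes 83 were found. Positions and exon lengths are from an Ensembl 115 annotation, a later release than the authors'. Python 3.11.15, numpy 2.4.6, pandas 2.3.3, scipy 1.17.1 and matplotlib 3.10.9 were used. Alternatives were other pseudocounts, a 2-fold threshold, centring on the median gene, a filter of 10 CPM, an untrended variance and leaving out each embryo. Condition means were centred on the genes at 10 CPM or more in every condition. Embryos were centred only on those of these genes that were recovered in all 12 embryos. The sets differ, so the 2 centrings can shift a condition by unlike amounts.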

Additional observations from a re-analysis of the deposited data

Results flagged for a closer look

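Klp61F and pav differed between C12-50min and control C14L in a direct test. Klp61F was higher at C12-50min than in control C14L by 0.74 on the log2 scale (limma adjusted p = 0.00796), and the 2 embryos of each condition did not overlap. pav was lower at C12-50min than in control C14L by a log2 difference of -1.16 (limma adjusted p = 0.00448), with the embryos again apart. Lying apart did not set these 2 genes off: 4 members lay above and 4 below control C14L in both embryos. How often this held over all genes was not counted. The contrast was chosen after the data had been seen, and the embryos differ in age as well as in arrest. These cannot be told apart here.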

How the results depend on the processing

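No paired analysis was possible because the deposited columns carry no replicate number and recovered embryos could not be tied to one. Counts of members past the fold threshold were 0 higher at C12-50min, 0 higher at C12-70min, and 0 higher and 1 lower in control C14L with a fold above 2. With conditions centred on the median gene, 0 were higher at C12-50min and 1 was lower in control C14L. The other counts of members past the fold threshold stayed within 1.5 times under each alternative. For limma, the number of members past the threshold at C12-30min was 4 with a filter of 10 CPM, 6 with embryos centred and 1 without a trend of the variance. It was 2 at C12-50min without the trend and 6 there with embryos centred. In control C14L against control C12 it was 3 with embryos centred. Leaving out 1 embryo gave 0 to 3 at C12-30min, 0 to 2 at C12-50min, 3 to 5 in control C14L and 1 to 2 for C12-50min against control C14L. A condition left with 1 embryo was assumed to vary like the others. No called difference changed sign. The causes of these changes were not tested. Reads of single embryos are inferred, so values of polo, and of every member but aurA at C12-70min, rest on means alone.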
